A study of Mus musculus with 6 samples.

Results

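The genes described here encode the thin filament of fast skeletal muscle fibers and the light chains of fast myosin. They were taken by symbol and comprise the fast troponin subunits Tnnc2, Tnnt3 and Tnni2, the light chains Mylpf and Myl1, skeletal actin (Acta1), the tropomyosins Tpm1 and Tpm2, and Ube2c, whose last exon faces Tnnc2 on the opposite strand. These are 9 of the 52636 genes in the deposited tables, and all 9 passed the filter on low counts. The RNA came from the pulverised tibialis anterior (TA) muscle of 3 iMSBmal1+/+ and 3 iMSBmal1-/- C57BL/6 male mice, with 1 library per mouse. Every mouse carried floxed Bmal1 and HSA-MCM, a Cre recombinase that is driven by the human skeletal actin promoter and becomes active with tamoxifen. At 12 to 16 weeks of age, the iMSBmal1-/- mice were injected for 5 days with tamoxifen at 2 mg per day, while the iMSBmal1+/+ mice were given its vehicle, 15% ethanol in sunflower seed oil. Muscles were taken 5 weeks later, so that loss of Bmal1 and exposure to tamoxifen cannot be told apart. The comparison asks which transcripts differ in muscle after the clock factor BMAL1 is lost from adult fibers.

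Muscle contracts when myosin heads pull on thin filaments built from actin. Tropomyosin runs along the actin strand and covers the sites for myosin, and the troponin complex moves it aside when calcium rises: troponin C binds the calcium, troponin I holds the filament off at rest, and troponin T ties the complex to tropomyosin. The light chains stiffen the lever arm of the myosin head, and phosphorylation of the regulatory light chain increases the force of fast fibers at low calcium.

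The iMSBmal1+/+ libraries held 2091912, 1997203 and 2716079 counts on genes. The iMSBmal1-/- libraries held 2403438, 1616290 and 2068657. Levels are given in CPM, a count relative to the total of its library after that total is scaled by a TMM factor. A count of 0 allows for up to 3 counts, or 1.10 to 1.86 CPM depending on the library. This floor is relative to the unscaled totals and covers counting error only. The deleted gene itself, Bmal1 (annotated as Arntl), had 5, 4 and 11 counts in the iMSBmal1+/+ libraries and 13, 5 and 5 in the iMSBmal1-/- libraries. These are few counts and totals for the whole gene, exons outside the floxed segment included, and they do not check the genotype of a library. The totals are counts assigned to genes; the number of reads sequenced was not used here.

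Markers of fast muscle were counted in all libraries. Myh4, the myosin heavy chain of the fastest fibers, held 5743, 7926 and 10943 counts in iMSBmal1+/+ and 10574, 7341 and 11446 in iMSBmal1-/- muscle, and all 7 fast fiber genes were tested. Of the 5 slow fiber genes, Mb (myoglobin) held 2107 counts over all 6 libraries, Atp2a2 held 457, Tnnt1 held 11, Myh7 held 3 and Myl2 held 2. The libraries were prepared with a kit that keeps the strand, but the strand setting used for counting is not stated in the sources used here. Ckm, the muscle creatine kinase, held 9583 counts against 1092649 on A930016O22Rik, which faces it on the opposite strand, and Atp2a1, the calcium pump of fast fibers, held 18498 against 1674470 on Rabep2. Both pairs were chosen after their values had been seen. If the counting took the opposite strand, the count of every gene named here, Mylpf and Acta1 included, would come from reads of the strand opposite to it and not from its own transcript, whether or not another gene faces it. The setting was not tested, so that counts, CPM and fold changes are those of reads as they were assigned to a gene. In muscle RNA of this kind, fewer cells of a type and less RNA per cell cannot be told apart.

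Of the 9 genes, 1 rose in iMSBmal1-/- muscle past the threshold, an adjusted p under 0.05 over all tested genes from edgeR's quasi-likelihood test with the Benjamini-Hochberg adjustment. This was Mylpf, the regulatory light chain of fast myosin. Among the 6831 genes tested, 125 (1.83%) were past the threshold in either direction and 52 (0.761%) were past it and higher in iMSBmal1-/- muscle. The 3 troponin subunits, both light chains and Acta1 were higher in every iMSBmal1-/- library than in any iMSBmal1+/+ library, which makes 6 of the 9 genes, and 604 of the tested genes (8.84%) separated in that way. At an unadjusted p under 0.05, 7 of the 9 genes were higher in iMSBmal1-/- muscle, against 399 of the tested genes (5.84%), and 814 of the tested genes (11.9%) were at that p in either direction. All 9 log2 fold changes were positive, as were 3404 (49.8%) of those tested, but the sign of Tpm1 and Ube2c turned when libraries were scaled to the less counted genes of 13 other pairs that face each other on opposite strands. That scaling moved the median of all tested genes to -0.30, so that small positive values turned by its construction. Relative to the moved median Tpm1 was at 0.08 and Ube2c at 0.14. Such values lie near those of the main fit by construction, since the scaling moves all genes of a library alike. The median log2 fold change was 0.46 over the 9 genes and -0.00087 over all tested genes. The 9 values come from the same libraries and are not independent of each other. The count of all genes past the threshold was 60 without iMSBmal1-/- replicate 2 and 66 without iMSBmal1-/- replicate 1. Of the 125 genes, 41.6% were higher in iMSBmal1-/- muscle, a share that was 54.2% with library totals only and 8.41% of 309 genes with the scaling to less counted genes and its moved median.

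**Figure D1:**
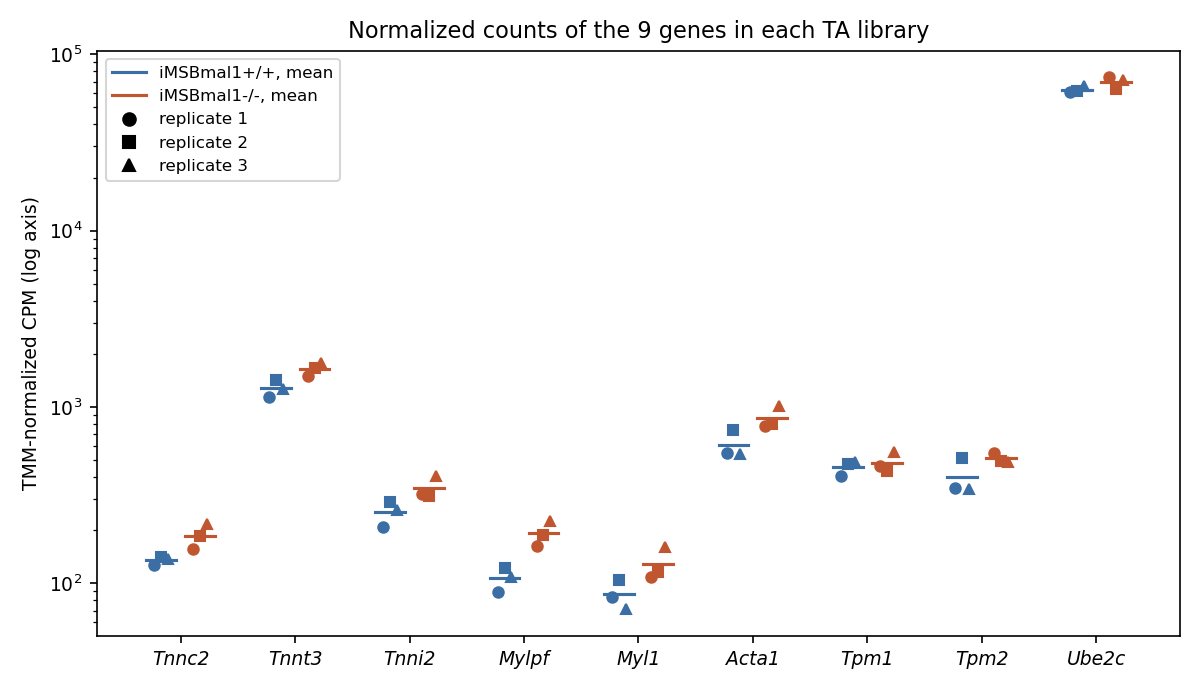
TMM-normalized CPM of the 9 genes on a log axis, with a point for each library (3 per genotype), a marker shape for each replicate number and a line at the mean of each genotype. The groups did not overlap for Tnnc2, Tnnt3, Tnni2, Mylpf, Myl1 and Acta1, whereas they overlapped for Tpm1, Tpm2 and Ube2c.

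Mylpf (ENSMUSG00000030672; chromosome 7, 127208890 to 127214298, plus strand, GRCm38) had 179, 237 and 286 counts in the iMSBmal1+/+ libraries and 375, 315 and 471 in the iMSBmal1-/- libraries. After TMM normalization these were 89.0, 122 and 109 CPM in iMSBmal1+/+ and 163, 189 and 225 CPM in iMSBmal1-/- muscle. The lowest iMSBmal1-/- library, replicate 1, lay well above the highest iMSBmal1+/+ library, replicate 2. The mean level was 107 ± 16.8 CPM (SD, n = 3) in iMSBmal1+/+ and 192 ± 30.9 (SD, n = 3) in iMSBmal1-/- muscle, a log2 fold change of 0.85 (standard error, SE, 0.14, with a 95% interval of 0.55 to 1.15). In edgeR's quasi-likelihood test its Benjamini-Hochberg adjusted p was 0.00241, and 3 of 3 iMSBmal1-/- libraries showed the direction. The call was lost under both alternatives that were added after the data had been seen. Without iMSBmal1-/- replicates 2 and 3 together, the log2 fold change was 0.62. With the scaling to less counted genes it was 0.55 (edgeR, adjusted p = 0.0733). That is 0.85 above the moved median of all tested genes, which repeats the main value by construction and is no further support. Across the 16 alternatives, the adjusted p of Mylpf ran from 4.47e-06 to 0.296 and 14 of them kept the call.

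Myl1 encodes the essential light chains of fast myosin, which bind the same lever arm. Its counts were 169, 201 and 188 in iMSBmal1+/+ and 248, 194 and 338 in iMSBmal1-/- muscle, which is 84.0, 104 and 71.4 CPM against 108, 116 and 161 CPM. The groups were separate by a narrow margin, between iMSBmal1+/+ replicate 2 and iMSBmal1-/- replicate 1. Myl1 had a log2 fold change of 0.58 (SE 0.17) and was not past the threshold (Benjamini-Hochberg adjusted p = 0.0897 in edgeR's quasi-likelihood test). Without iMSBmal1+/+ replicate 2, it was 0.73 and past the threshold (edgeR, adjusted p = 0.0486, within a range of 0.0167 to 0.908 over all alternatives), whereas without iMSBmal1-/- replicate 3 it was 0.38 (edgeR, adjusted p = 0.396). The regulatory light chain differed more than the essential light chain in point estimate only. The log2 ratio of Mylpf to Myl1 was 0.08, 0.24 and 0.60 in iMSBmal1+/+ and 0.60, 0.70 and 0.48 in iMSBmal1-/- muscle, with overlapping groups. The mean ratio differed by 0.28 (exact permutation test, two-sided, p = 0.3, adjusted p = 0.667 over 5 ratios by Benjamini-Hochberg, n = 3 per genotype), where the smallest p that 3 libraries against 3 can give is 0.1.

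Tnnt3, the fast troponin T, was the most counted of the troponin subunits. It had 2291, 2751 and 3317 counts in iMSBmal1+/+ and 3461, 2779 and 3720 in iMSBmal1-/- muscle. On the normalized scale its levels were 1139, 1420 and 1259 CPM against 1506, 1665 and 1774 CPM. The libraries of the genotypes separated, with iMSBmal1-/- replicate 1 closest to the iMSBmal1+/+ range. For Tnnt3 the log2 fold change was 0.37 (SE 0.11, Benjamini-Hochberg adjusted p = 0.0939 in edgeR's quasi-likelihood test).

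Tnni2 encodes the fast troponin I, the subunit that inhibits the filament at rest. Its 417, 560 and 683 counts in iMSBmal1+/+ and 735, 520 and 849 in iMSBmal1-/- muscle corresponded to 207, 289 and 259 CPM and to 320, 312 and 405 CPM. Here iMSBmal1-/- replicate 3 stood above its group. Tnni2 thus had a log2 fold change of 0.46 (SE 0.13), and its Benjamini-Hochberg adjusted p in edgeR's quasi-likelihood test was 0.0939, as for Tnnt3. The balance between these subunits did not separate the genotypes. The log2 ratio of Tnnt3 to Tnni2 was 2.34 ± 0.10 (SD, n = 3) in iMSBmal1+/+ and 2.26 ± 0.14 (SD, n = 3) in iMSBmal1-/- muscle (exact permutation p = 0.4, adjusted p = 0.667 over 5 ratios).

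Tnnc2 encodes the fast troponin C, the calcium sensor of the complex. It had 254, 272 and 363 counts in iMSBmal1+/+ and 359, 308 and 454 in iMSBmal1-/- muscle, or 126, 140 and 138 CPM against 156, 184 and 216 CPM. The iMSBmal1+/+ libraries lay close together, and the iMSBmal1-/- libraries were all above them and more spread. On the log2 scale the fold change was 0.46 (SE 0.13, 95% interval 0.19 to 0.73), not past the threshold (Benjamini-Hochberg adjusted p = 0.0835 in edgeR's quasi-likelihood test). Relative to Tnni2, the log2 ratio of Tnnc2 was -0.89 ± 0.16 (SD, n = 3) in iMSBmal1+/+ and -0.90 ± 0.14 (SD, n = 3) in iMSBmal1-/- muscle (exact permutation p = 1, the highest a test can give).

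Tnnc2 lies on the minus strand of chromosome 2 from 164777161 to 164779967, and Ube2c, which encodes a ubiquitin-conjugating enzyme that acts with the anaphase-promoting complex in dividing cells, lies on the plus strand from 164769898 to 164778822. Of the 9 genes, only Tnnc2 and Ube2c have exons that face each other. The overlap is 592 bp long, which is 74.0% of the exonic sequence of Tnnc2 and 22.8% of that of Ube2c. It falls in the last exon of the transcript Ube2c-201, exon 6 from 164777190 to 164778822, which spans exons 2 to 5 and most of exon 6 of Tnnc2-201. The other Ube2c transcript, Ube2c-202, ends at 164772907 and does not reach Tnnc2. Within the overlap, a stretch of sequence belongs to either gene depending on the strand. A run of 30 bases of coding exon 3 of Tnnc2-201, chr2:164778058-164778087 on GRCm38, is printed as each transcript carries it, 5′ to 3′, because the counts of this pair depend on which of these strands a read is given to.
Tnnc2-201, minus strand: agttcaaggctgcctttgacatgttcgatg
Ube2c-201, plus strand: catcgaacatgtcaaaggcagccttgaact

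**Figure D2:**
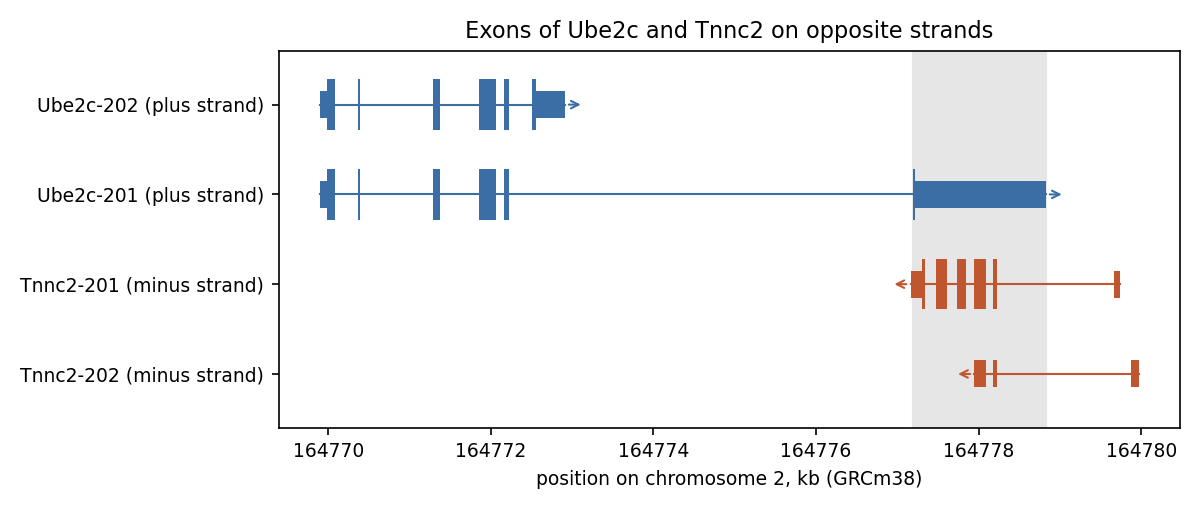
Exons of the annotated transcripts of Ube2c (plus strand) and Tnnc2 (minus strand) by position on chromosome 2 in kb (GRCm38), with coding parts as tall boxes, untranslated parts as low boxes and arrows in the direction of transcription. The grey band marks exon 6 of Ube2c-201, from 164777190 to 164778822, which covers exons 2 to 5 of Tnnc2-201.

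The counts of this locus lay almost wholly on Ube2c. It held 122626, 119874 and 174998 counts in iMSBmal1+/+ and 170013, 105706 and 149651 in iMSBmal1-/- muscle, and it was the gene with the rank of 3 by counts in each of the 6 libraries. Ube2c alone took 5.86 to 7.23% of a library's counts, whereas the 8 other genes together took 0.284 to 0.491%. For each count on Tnnc2 there were 483, 441 and 482 on Ube2c in the iMSBmal1+/+ libraries and 474, 343 and 330 in the iMSBmal1-/- libraries. Genes that work with Ube2c in the cell cycle were far lower. Of 14 such genes, 6 had 0 counts in all libraries (Top2a, Ccnb1, Birc5, Plk1, Cdk1 and Bub1), Mki67 had 28 counts in all, and the most counted, Ube2s, which faces Rpl28, had 1172. Of this list 4 genes were tested and 0 were past the threshold in edgeR, DESeq2 or limma, with 1 gene (Ube2s) at an unadjusted p under 0.05. Over all tested genes, 1.83% were past the threshold in edgeR and 11.9% were at that p. Ccna2, a cyclin of dividing cells that faces Exosc9, had 712 counts and a log2 fold change of -0.20 (SE 0.17, not past the threshold).

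Ube2c itself did not pass the threshold. Its normalized level was 60976, 61883 and 66423 CPM in iMSBmal1+/+ and 73977, 63322 and 71361 CPM in iMSBmal1-/- muscle, so that iMSBmal1-/- replicate 2 lay within the iMSBmal1+/+ range. Between genotypes the log2 fold change was 0.14 (SE 0.11, 95% interval -0.10 to 0.38, Benjamini-Hochberg adjusted p = 0.703 in edgeR's quasi-likelihood test), and it was -0.16 with the scaling to less counted genes, before the move of the median is taken off. With the counts of both genes added to 1 value for the locus, the log2 fold change was 0.14 (SE 0.11, Benjamini-Hochberg adjusted p = 0.700 by edgeR), the same as for Ube2c alone to this precision. That likeness was fixed in advance, since almost all counts of the sum lay on Ube2c.

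The share of the pair's counts that lay on Tnnc2 was 0.207% (Wilson 95% interval 0.183 to 0.234), 0.226% (0.201 to 0.255) and 0.207% (0.187 to 0.229) in the iMSBmal1+/+ libraries. In the iMSBmal1-/- libraries it was 0.211% (0.190 to 0.234), 0.291% (0.260 to 0.325) and 0.302% (0.276 to 0.332). These intervals cover counting error only and not the spread between mice. Replicate 1 of iMSBmal1-/- thus lay within the iMSBmal1+/+ range, and replicates 2 and 3 lay above it. The mean share was 0.213 ± 0.0113% (SD, n = 3) and 0.268 ± 0.0499% (SD, n = 3), a difference of 0.0545 percentage points (exact permutation test, two-sided, p = 0.2, 1 pair tested). Leaving out each library in turn gave differences from 0.0373 to 0.0831 percentage points.

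The same share was taken in other facing pairs. In 13 other pairs of genes with at least 50 counts each and 100 bp of facing exons, of which the gene with more counts held at least 50000 and the other took under 15% of the pair in every library, the share of counts on the gene with fewer counts had a median of 0.878, 0.940 and 0.851% in the iMSBmal1+/+ libraries. In the iMSBmal1-/- libraries the median was 0.958, 1.18 and 1.31%. Replicates 2 and 3 of iMSBmal1-/- were highest here too. The mean share was higher in iMSBmal1-/- muscle in 13 of the 13 pairs and the groups did not overlap in 5. A wider set of 117 pairs under the same limit on the share, whose greater gene held at least 5000 counts, includes the 13. In this set the mean share was higher in 77 pairs and separate between groups in 18. In 0 pairs were the groups separate in the other direction. These pairs were chosen after their values had been seen, and their median share was highest in the 2 iMSBmal1-/- libraries in which Tnnc2 and Mylpf were highest in CPM. Their part in those results was not tested. A scaling of libraries so that the less counted genes of the 13 pairs have equal sums moves all genes alike and does not test that part. Those 13 genes include Atp2a1, Ckm, Myh1 and Mybpc2, which are 4 of the 7 fast fiber markers, and Ttn and Cacna1s.

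**Figure D3:**
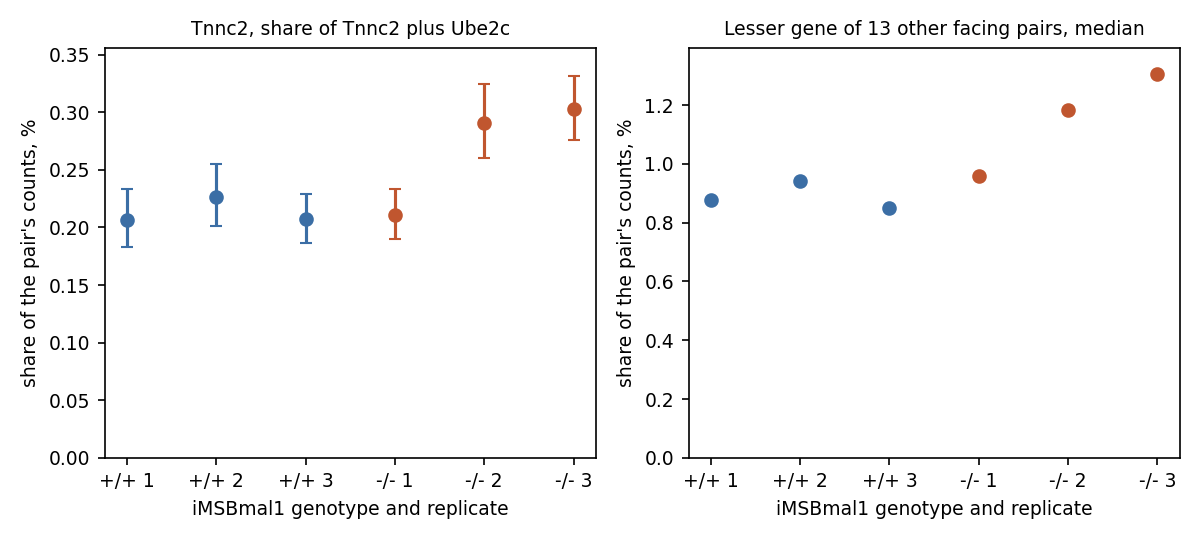
Share of counts, in percent of a pair, for each of the 6 libraries, iMSBmal1+/+ in blue and iMSBmal1-/- in orange. On the left is Tnnc2 as a share of Tnnc2 plus Ube2c, with Wilson 95% intervals that cover counting error only. On the right is the median over 13 other facing pairs of the share on the gene with fewer counts. In both, iMSBmal1-/- replicates 2 and 3 were highest, at 0.291 and 0.302% and at 1.18 and 1.31%.

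Acta1 encodes the skeletal actin of which the thin filament is built. It had 1101, 1440 and 1424 counts in iMSBmal1+/+ and 1781, 1332 and 2134 in iMSBmal1-/- muscle. The normalized levels were 547, 743 and 541 CPM against 775, 798 and 1018 CPM. The groups were separate by a small gap, between iMSBmal1+/+ replicate 2 and iMSBmal1-/- replicate 1, and iMSBmal1-/- replicate 3 stood highest. Acta1 had a log2 fold change of 0.50 (SE 0.13, 95% interval 0.23 to 0.78), and after Mylpf it came nearest to the threshold among the 9 genes, with a Benjamini-Hochberg adjusted p of 0.0608 in edgeR's quasi-likelihood test. Without iMSBmal1+/+ replicate 2, it was 0.66 and past the threshold (edgeR, adjusted p = 0.0131). Without iMSBmal1-/- replicate 3 it was 0.37 (edgeR, adjusted p = 0.302), and leaving out any other single library gave no call. The edgeR adjusted p was 0.00493 with the replicate block and 0.484 with the scaling to less counted genes.

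For both tropomyosins the groups overlapped. Tpm2, the beta tropomyosin, had 701, 995 and 902 counts in iMSBmal1+/+ and 1261, 827 and 1019 in iMSBmal1-/- muscle, which is 349, 514 and 342 CPM against 549, 495 and 486 CPM. A single iMSBmal1+/+ library, replicate 2, lay in the iMSBmal1-/- range. The genotypes differed by a log2 fold change of 0.35 (SE 0.13, Benjamini-Hochberg adjusted p = 0.269 in edgeR's quasi-likelihood test). Without that library it was 0.56 and past the threshold (edgeR, adjusted p = 0.0205, within a range up to 0.817 over all alternatives). This was the only call of Tpm2 among the 16 alternatives. Leaving out any other single library gave 0.24 to 0.38 (edgeR, adjusted p from 0.344 to 0.602).

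Tpm1, the alpha tropomyosin of fast fibers and the heart, had 820, 914 and 1280 counts in iMSBmal1+/+ and 1058, 724 and 1164 in iMSBmal1-/- muscle. Its levels of 408, 472 and 486 CPM and of 460, 434 and 555 CPM were interleaved. Here the log2 fold change was 0.09 (SE 0.11, 95% interval -0.15 to 0.32, Benjamini-Hochberg adjusted p = 0.847 in edgeR's quasi-likelihood test). Its sign turned without iMSBmal1-/- replicate 3 (-0.03) and with the scaling to less counted genes (-0.22). The log2 ratio of Tpm1 to Tpm2 was 0.23, -0.12 and 0.50 in iMSBmal1+/+ and -0.25, -0.19 and 0.19 in iMSBmal1-/- muscle. The groups overlapped, with a difference of -0.29 (exact permutation p = 0.2, adjusted p = 0.667 over 5 ratios). With 3 libraries against 3 this test cannot give a p under 0.1. The log2 ratio of Acta1 to Tpm2 was 0.61 ± 0.07 (SD, n = 3) and 0.75 ± 0.29 (SD, n = 3) in iMSBmal1+/+ and iMSBmal1-/- muscle (exact permutation p = 0.6, adjusted p = 0.75 over 5 ratios).

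**Figure D4:**
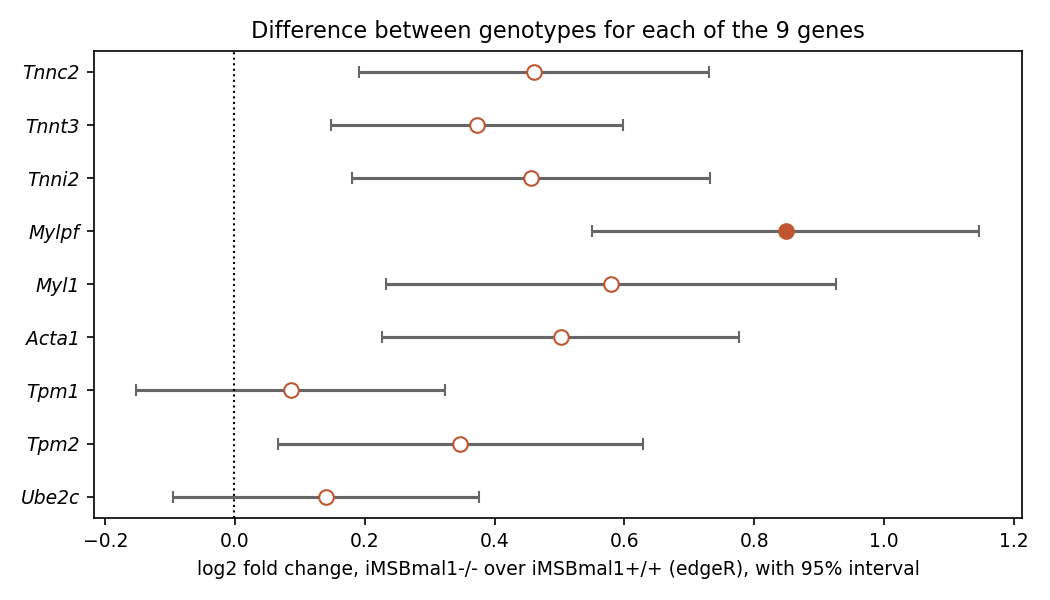
The log2 fold change of each of the 9 genes, iMSBmal1-/- over iMSBmal1+/+, from edgeR with its 95% interval (bars). The filled point is Mylpf, with a log2 fold change of 0.85 and past the threshold, open points were not past it, and the dotted line is the median of all tested genes (-0.00087).

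Per kilobase of exonic sequence, the level in iMSBmal1+/+ muscle was highest for Ube2c at 24267 CPM per kb. Among the filament and light chain genes it descended from Tnnt3 (804 CPM per kb) through Acta1 (397), Tnnc2 (169), Tnni2 (168), Tpm2 (138), Mylpf (100.4) and Tpm1 (70.2) to Myl1 (41.7). In iMSBmal1-/- muscle, Mylpf stood at 181 CPM per kb and Tpm2 at 175, so that their places were exchanged, and Tnnc2 and Tnni2 stood at 232 and 231. In both genotypes Tnnc2 and Tnni2 lay within 1 SD of each other, and in iMSBmal1-/- muscle so did Mylpf and Tpm2. This is the order of counts as they were assigned, and all 9 places in it depend on the strand setting. The length used counts the exons of all transcripts of a gene, for Tpm1 6485 bp from 21 annotated transcripts.

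Across the 6 libraries, the 6 genes whose groups did not overlap varied together, with Pearson's r of log2 CPM from 0.87 to 0.99 between any pair of them. Tpm1 followed the other genes less closely (r from 0.26 to 0.78), and Ube2c had r of 0.43 to 0.68 with the 8 others. These are descriptions over 6 libraries that also share the difference between genotypes. Among 2909 tested genes with a mean of at least 20 CPM, the genes most like Mylpf were Neb (r = 0.99), Tnnt3 (r = 0.99) and 2610206C17Rik (r = 0.98). Neb, which encodes nebulin, the large protein that lies along the thin filament, was also the most like Tnnc2 (r = 0.98), before Ndrg2 and Pkm (the muscle pyruvate kinase gene). Tnnt3 was most like Ttn (titin), Mylpf and Cacna1s, the calcium channel that senses voltage in the fiber membrane; Ttn and Cacna1s are among the less counted genes of the 13 facing pairs. Tnni2 resembled Haghl, Nt5m and Cacna1s, and Myl1 resembled Eef1a2 and Adssl1. Acta1 was most like the glycolytic genes Aldoa and Eno3 (r = 0.99 for each) and Tns1. The tropomyosins had other companions, which were Cep57, Ttc7 and Gm15737 for Tpm1 and Gm16163, Gm26613 and Copg2 for Tpm2. Ube2c was most like Tesk2 (r = 0.97), Trim24 and Gm15856, none of which is among the 9 genes. Each of the 9 genes had a highest r of at least 0.97, picked from 2909 genes over 6 libraries. A high r alone therefore does not mark a partner.

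Slow and cardiac forms of the same proteins were close to the floor. Of 11 such genes, Tnni1, Tnni3 and Myl7 had 0 counts in all libraries, and the list summed to 16, 15 and 15 counts in the iMSBmal1+/+ libraries and 47, 29 and 35 in the iMSBmal1-/- libraries. A single gene was tested, Actc1, the cardiac actin, which is also made in developing and regenerating skeletal muscle. It passed the filter on low counts only through the iMSBmal1-/- libraries, so that its count among the tested genes of this list is no support for a direction, and with at least 10 counts required in every library it was not tested. Actc1 had 5, 2 and 1 counts in iMSBmal1+/+ and 19, 17 and 13 in iMSBmal1-/- muscle, or 2.49, 1.03 and 0.380 CPM against 8.27, 10.2 and 6.20 CPM. The groups were separate, though the iMSBmal1+/+ libraries lay around the floor of 3 counts. Actc1 had a log2 fold change of 2.67 (SE 0.57, Benjamini-Hochberg adjusted p = 0.0139 in edgeR's quasi-likelihood test). The call was lost without iMSBmal1+/+ replicate 2 or 3 and without iMSBmal1-/- replicate 1 or 2, with edgeR adjusted p from 0.0555 to 0.111 in these fits, within a range of 0.000784 to 0.497 over the 14 alternatives that gave an adjusted p. In those 4 fits the log2 fold change was 2.16 to 2.65. Without iMSBmal1+/+ replicate 1 it was 3.50 and past the threshold (edgeR, adjusted p = 0.0116). It was 2.69 without iMSBmal1-/- replicates 2 and 3 together, where the call was lost too (edgeR, adjusted p = 0.497). DESeq2 gave Actc1 no adjusted p and thus no call. Next in counts was Myl3, the slow and ventricular essential light chain, with 37 in all, and it was not tested.

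Nonmuscle and smooth muscle forms gave 5 tested genes of 10, and 0 were past the threshold in edgeR, DESeq2 or limma, or at an unadjusted p under 0.05. Over all tested genes, 1.83% were past the threshold in edgeR and 11.9% were at that p, so that 0 of 5 does not set these forms apart. The median log2 fold change of the 5 was 0.32. The most counted were Myl6, a nonmuscle light chain with 177 counts in all and a log2 fold change of 0.32 (SE 0.30), and Myl6b with 151 counts and 0.06 (SE 0.30).

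Among 17 genes that set the length and the ends of thin filaments or anchor them, 12 were tested. In edgeR and limma 0 were past the threshold, and in DESeq2 1 was (Neb, adjusted p = 0.0466). At an unadjusted p under 0.05 were 4 of the 12. Over all tested genes, 1.83% were past the threshold in edgeR and 11.9% were at that p. Of the 12, 11 had a positive log2 fold change, against 49.8% of all tested genes. The median of the 12 was 0.51 against -0.00087 over all tested genes. With the scaling to less counted genes, whose median over all tested genes was -0.30, 9 were positive. Neb had 1038, 1209 and 1164 CPM in iMSBmal1+/+ and 1358, 1453 and 1647 CPM in iMSBmal1-/- muscle, with a log2 fold change of 0.39 (SE 0.11, Benjamini-Hochberg adjusted p = 0.0724 in edgeR's quasi-likelihood test). Its groups did not overlap, and Neb faces Gm13522. Actn3, the alpha-actinin that anchors thin filaments at the Z-disc of fast fibers, had a log2 fold change of 0.51 (SE 0.15, edgeR, Benjamini-Hochberg adjusted p = 0.104). Without iMSBmal1+/+ replicate 3 it was 0.69 and past the threshold (edgeR, adjusted p = 0.0193, within a range of 0.00282 to 0.817 over all alternatives), whereas without iMSBmal1+/+ replicate 1 it was 0.33 (edgeR, adjusted p = 0.376).

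Of 9 genes that act on the phosphorylation of light chains and troponin, 7 were tested, 1 fell and 0 rose in edgeR, DESeq2 or limma, with 3 at an unadjusted p under 0.05, against 1.07% past the threshold and lower and 11.9% at that p among all tested genes. The gene that fell was Mylk4, a kinase of the myosin light chain kinase family. It had 40, 56 and 65 counts in iMSBmal1+/+ and 22, 15 and 28 in iMSBmal1-/- muscle, which is 19.9, 28.9 and 24.7 CPM against 9.57, 8.99 and 13.4 CPM. All iMSBmal1-/- libraries lay below all iMSBmal1+/+ libraries. Its log2 fold change was -1.19 (SE 0.26, Benjamini-Hochberg adjusted p = 0.0207 in edgeR's quasi-likelihood test). This call was lost without iMSBmal1+/+ replicate 2 or 3 and without iMSBmal1-/- replicate 1 or 2, with edgeR adjusted p from 0.0556 to 0.109 in these fits, within a range of 0.000507 to 0.223 over all alternatives. In those 4 fits the log2 fold change was -1.19 to -1.07. It was -1.34 without iMSBmal1-/- replicates 2 and 3 together, where the call was lost too (edgeR, adjusted p = 0.223). Mylk2, the skeletal kinase that phosphorylates the product of Mylpf, was the most counted of the list with 884 counts and a log2 fold change of 0.37 (SE 0.17, edgeR, Benjamini-Hochberg adjusted p = 0.379).

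Of 12 transcription factors known to act on thin filament genes, 9 were tested and 0 were past the threshold in edgeR, DESeq2 or limma. At an unadjusted p under 0.05 were 2 of the 9, and their median log2 fold change was 0.26 over the 9. Over all tested genes, 1.83% were past the threshold in edgeR and 11.9% were at that p. Sox6, which represses slow fiber genes, had 241 counts and a log2 fold change of 0.27 (SE 0.24). With the scaling to less counted genes its value was -0.02. That is 0.27 above the median of all tested genes there, near the main value by construction. Myog, a factor of muscle differentiation, had 0 counts in all libraries.

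Among the markers, 1 of 7 fast fiber genes rose, and 6 of the 7 were higher in iMSBmal1-/- muscle at an unadjusted p under 0.05, against 0.761% and 5.84% of all tested genes. The gene past the threshold was Pvalb, the calcium buffer of the fastest fibers, with 28.3, 42.3 and 34.9 CPM in iMSBmal1+/+ and 62.2, 67.7 and 67.2 CPM in iMSBmal1-/- muscle (log2 fold change 0.90, SE 0.17, Benjamini-Hochberg adjusted p = 0.0070 in edgeR's quasi-likelihood test). The groups were far apart. Like that of Mylpf, this call was lost with the scaling to less counted genes (0.61, edgeR adjusted p = 0.0939). The value of Pvalb there is 0.91 above the moved median, near the main value by construction. Without iMSBmal1-/- replicates 2 and 3 it was 0.83 and the call was lost too. The call held in the other 14 of 16 alternatives, down to an edgeR adjusted p of 0.000678. All 7 fast fiber genes had a positive log2 fold change, with a median of 0.38, and 6 did with that scaling, which is itself built on 4 of them. Of the slow fiber genes 2 of 5 were tested, Mb and Atp2a2, and 0 were past the threshold in edgeR, DESeq2 or limma, with Mb at an unadjusted p under 0.05. Of the markers of other cells, Des (desmin), which skeletal fibers also make, was the most counted, with 3286 counts and a level of 258 ± 18.6 CPM (SD, n = 3) in iMSBmal1+/+ and 264 ± 39.7 CPM (SD, n = 3) in iMSBmal1-/- muscle. Csf1r followed with 780 counts and Tagln with 303, and the others had at most 138. Of the tested genes of these cells, 0 were past the threshold in edgeR, DESeq2 or limma, and Csf1r alone was at an unadjusted p under 0.05. Its log2 fold change was -0.41 (SE 0.17). With the scaling to less counted genes, which moved the median to -0.30, Csf1r was past the threshold. Over all tested genes, 1.83% were past the threshold in the main edgeR fit and 11.9% were at that p. Among fibroblast and smooth muscle genes, 3 of 5 each could be tested. So could 1 of 3 endothelial, 1 of 4 macrophage and 1 of 4 adipocyte genes, and 0 of the satellite cell, blood and nerve genes. Adgre1 and Ptprc, which define macrophages and leukocytes, and Chodl of satellite cells had 0 counts in all libraries. Csf1r faces Hmgxb3.

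Genes beside the 9 on the chromosomes did not pass the threshold. Within 10 kb of them, the genes with at least 10 counts in a library were Gm11457 and Snx21 near Tnnc2 and Ube2c, Lsp1 and Prr33 near Tnnt3, Syt8 near Tnni2, Tbc1d10b and Sept1 near Mylpf, Gm29773 and Nup133 near Acta1, and Car9 and Tln1 near Tpm2. Of these 11 genes, 0 were past the threshold in edgeR, DESeq2 or limma, and Lsp1 alone had an unadjusted p under 0.05. Over all tested genes, 1.83% were past the threshold in edgeR and 11.9% were at that p. The counts among the 11 thus do not set these genes apart. Sept1 lies 148 bp from Mylpf on the other strand and held at most 51 counts in a library. Prr33, a noncoding gene on the minus strand whose body overlaps that of Tnnt3 without a shared exonic base, had 1078, 1026 and 1513 counts in iMSBmal1+/+ and 1132, 969 and 932 in iMSBmal1-/- muscle, and its log2 fold change was -0.11 (SE 0.11). Lsp1, on the same strand as Tnnt3 and 3968 bp from it, had its iMSBmal1-/- libraries below all iMSBmal1+/+ libraries in CPM, with a log2 fold change of -0.28 (SE 0.13, edgeR, Benjamini-Hochberg adjusted p = 0.403).

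Promoter sequences were taken from RefSeq on GRCm38.p6 for 7 of the 9 genes, which are Myl1, Ube2c, Tnnc2, Tpm2, Mylpf, Acta1 and Tpm1. In the 250 bases before the start, the E-box core CANNTG, whose forms are read by basic helix-loop-helix factors, was found in 7 of the 7, against 66.2% of 32851 promoters of that length. The form CAGCTG, contained in CANNTG, was present in 4 of the 7 (Myl1, Tpm2, Mylpf and Acta1) and in 13% of all promoters. The form CACGTG, which the dimer of BMAL1 and CLOCK prefers, was present in 0 of the 7 and in 6.02% of all promoters. These motifs read the same on both strands. The letters TATAAA, searched on both strands, were present in 2 of the 7 (Myl1 and Acta1) and in 12.4% of all promoters. A match is a description of letters in this window only. The windows end at the starts in RefSeq, and those of Mylpf and Myl1 lie inside the span of the gene in GENCODE, where other transcripts begin farther upstream, while those of Ube2c, Tnnc2, Tpm1 and Tpm2 do so in part. The promoters of Mylpf and Acta1, the genes with the lowest adjusted p of the 9, are printed 5′ to 3′ on the strand of the gene with CANNTG in capitals, at chr7:127211358-127211607 (plus strand) and chr8:123894776-123895025 (minus strand).
Mylpf: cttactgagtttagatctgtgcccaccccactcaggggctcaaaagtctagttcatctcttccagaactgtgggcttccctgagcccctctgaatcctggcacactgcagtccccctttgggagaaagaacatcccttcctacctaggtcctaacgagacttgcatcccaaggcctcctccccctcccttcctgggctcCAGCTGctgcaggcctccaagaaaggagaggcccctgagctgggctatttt
Acta1: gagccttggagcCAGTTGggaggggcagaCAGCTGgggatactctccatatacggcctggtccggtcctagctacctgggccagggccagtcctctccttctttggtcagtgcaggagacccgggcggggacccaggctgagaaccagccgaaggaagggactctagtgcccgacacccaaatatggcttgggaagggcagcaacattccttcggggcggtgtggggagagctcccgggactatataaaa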

How the data were processed

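RNA-seq libraries of TA muscle from 3 iMSBmal1+/+ and 3 iMSBmal1-/- mice were analysed. The authors mapped reads to mm10 with HISAT2 and deposited raw counts per Ensembl gene from HTSeq; versions, annotation release and strand setting are not given in the sources used here. They also deposited a normalized signal, which is the count divided by 1 DESeq2 size factor per library (0.828 to 1.26). Of the 52636 identifiers, 52489 were found in GENCODE mouse release 21 (GRCm38) and 147 were not. Exonic overlaps, lengths and distances came from that annotation, and 0 columns of the tables were left unused.

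Raw counts were filtered with filterByExpr, normalized with TMM and compared, two-sided, with the quasi-likelihood test of edgeR 4.0.16 under R 4.3.3, and p-values were adjusted over all 6831 tested genes by the Benjamini-Hochberg method. The common biological coefficient of variation was 14.8%. Ratios (0.5 added to each count) and shares were compared by exact permutation over 20 assignments, with Benjamini-Hochberg adjustment over the 5 ratios. The tests were first tried on simulated counts. Alternatives were DESeq2 1.42.0, upper-quartile factors, library totals, no filter, at least 10 counts in every library, limma 3.58.1 on log2(signal + 1), the replicate number as a block, leaving out each library, factors computed without the 9 genes, and the Tnnc2 locus as a sum. Scaling to the less counted genes of 13 pairs and leaving out iMSBmal1-/- replicates 2 and 3 together were added after seeing the data. Python 3.11.15, numpy 2.4.6 and matplotlib 3.10.9 were used.

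The genes and lists were chosen with earlier results of these data known. Named were the 9 genes, genes that overlap them, genes within 10 kb with at least 10 counts in a library, list genes past the threshold and the 2 most counted of each list, and the 3 genes most like each of the 9; list genes named for their role, for 0 counts or as fiber markers were added after their values were seen. Some genes that these rules pick are not reported here. The lists were slow and cardiac forms, nonmuscle and smooth muscle forms, thin filament ends and anchoring, phosphorylation, transcription factors, cell cycle partners of Ube2c, and markers of fast fibers, slow fibers, satellite cells, fibroblasts, smooth muscle, endothelium, blood, macrophages, adipocytes and nerve. Single exons and isoforms were not analysed here.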

Additional observations from a re-analysis of the deposited data

How the results depend on the processing

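Mylpf kept its direction under all 16 alternatives and its call under 14, with a log2 fold change of 0.72 to 0.95 when each library was left out in turn. The number of the 9 genes past the threshold was 2 with DESeq2 and with library totals only (Mylpf and Acta1), 3 without a filter on low counts, 1 to 4 when a library was left out, 0 with the scaling to less counted genes, and 0 without iMSBmal1-/- replicates 2 and 3 together, where the remaining library was assumed to vary like the others. The number of all genes past it was 219 without a filter, 309 with the scaling, 60 to 109 when a library was left out, and 45 without iMSBmal1-/- replicates 2 and 3, a fit on fewer libraries. Whether the replicate numbers pair the mice is not stated in the sources used here. In deviations from the group means, libraries of the same number had correlations of -0.04, -0.02 and -0.03. Libraries of different number had correlations of -0.0040 to 0.035. Values of both kinds were small, so that this check cannot decide on a pairing. With the replicate block 220 genes and 6 of the 9 were past the threshold.

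Signs turned for some values. The scaling to less counted genes moved the median of all tested genes to -0.30, so that small positive values turned by its construction, and gave log2 fold changes of -0.22 for Tpm1, -0.16 for Ube2c, -0.22 for Myl6b, -0.025 for Sox6 and -0.0012 for Ube2s. For the others the cause was not tested. Without iMSBmal1-/- replicates 2 and 3 the values were -0.0016 for Sox6 and 0.077 for Ccna2. Leaving out a library in turn gave a log2 fold change from -0.026 to 0.16 for Tpm1, from -0.077 to 0.27 for Myl6b, from 0.039 to 0.48 for Myl6, from 0.20 to 0.52 for Mylk2, from 0.14 to 0.43 for Sox6, from -0.37 to -0.074 for Ccna2, from -0.22 to -0.030 for Prr33 and from 0.085 to 0.21 for Ube2c. It gave differences in log2 ratio from -0.084 to 0.079 for Tnnc2 to Tnni2, from -0.022 to 0.26 for Acta1 to Tpm2, from 0.17 to 0.43 for Mylpf to Myl1, from -0.45 to -0.14 for Tpm1 to Tpm2 and from -0.16 to -0.018 for Tnnt3 to Tnni2. With the counts of Ube2c added to those of Tnnc2, the difference for Tnnc2 to Tnni2 was -0.32, against -0.0080 without them. Since Tnnc2 held only 0.207 to 0.302% of that sum, the summed value is in effect that of Ube2c to Tnni2. It does not test the balance of the troponin subunits. Of 351 log2 fold changes of single genes under an alternative, 309 kept their direction and their side of the threshold. This total includes genes that were not past the threshold in the main fit and stayed so. Among the genes past it in the main fit, Mylpf and Pvalb kept the call in 14 of 16 alternatives, Mylk4 in 11 of 16 and Actc1 in 9 of 14. Counts were few for Myl1, at 169 to 338, and for Actc1, at 1 to 5 in iMSBmal1+/+ libraries. How far this limits the precision of their values was not tested.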
